A study of Drosophila melanogaster with 24 samples.

Results

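Open chromatin of the larval wing disc was compared between E93 mutant and wild-type flies at L3. The comparison took all peaks of the 2 L3 lists, 28216 in the mutant and 39525 in wild type, which were called on 5 of the 24 samples of the series (2 mutant and 3 wild-type replicates). They make up 67741 of the 183658 peaks in the 7 peak lists of the series. E93 mutant discs carried the strain label E93-4/Df(3R)93FX2, an E93 allele over a deficiency of 3R, the right arm of chromosome 3. Wild-type discs carried the label w1118/y,w, hs-FLP; + ; +, so the genotypes differ in genetic background as well as in E93. Discs came from staged females, at least 40 to a sample, and bulk tissue was used, so that a lower share of cells with an open region and a weaker opening in each cell cannot be told apart. The same genotypes were assayed at 24 h and 44 h after puparium formation (APF), with 2 mutant and 3 wild-type replicates at each stage, and E93 binding was mapped at 24 h by ChIP-seq of GFP-tagged E93 (E93-GFSTF, 2 replicates). The labels place the mutant samples in the third instar, whereas all 28216 peak names of the mutant L3 list give 0 h APF, so the stage was checked against the later lists. The names also differ in another way: those of the mutant list mention removal of PCR duplicates, whereas all 39525 names of the wild-type L3 list mention a selection of the top 5000 peaks and no removal of duplicates. Whether the wild-type L3 reads were processed differently is not given in the sources used here, and its part in the pileups and depth below was not tested.

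E93, also called Eip93F, encodes a transcription factor that the steroid hormone ecdysone induces, and it is known for its action in pupal tissues, after the larval stage examined here. At L3, wings of both genotypes can thus be set side by side ahead of that period. FAIRE-seq recovers DNA that is free of nucleosomes after formaldehyde crosslinking, and its peaks mark enhancers, promoters and other regulatory DNA that is accessible. The height of a peak is given here as its pileup, which in both L3 lists is the number of extended reads that cover the summit. In the wild-type 24 h and 44 h lists and in the ChIP-seq list the pileups are not whole numbers. There they are scaled values and not read counts.

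The authors pooled the replicates before they called peaks and deposited 1 list per genotype and stage. No spread between replicates is therefore known, no test between genotypes was possible, and every difference below is a description of 2 lists. The intervals are exact 95% binomial intervals and cover counting error only. The lists also differ in depth. From the background level of each list, under an assumed read extension of 125 bp and an assumed genome size of 120 Mb, the depth came to 5.44 M reads in the mutant and 9.57 M reads in wild type. The pileup ran between 13 and 211 with a median of 28 in the mutant list, and between 20 and 237 with a median of 35 in the wild-type list. Peaks had a median length of 242 bp in the mutant and 236 bp in wild type, and covered 9.21 Mb and 12.4 Mb of the genome.

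Strongly open regions were shared almost without exception, and the lists parted at weak peaks. A peak was counted as shared when it overlapped a peak of the other list by at least 1 bp. Of the mutant peaks, 24724 of 28216 (87.6%, interval 87.2% to 88.0%) had a wild-type counterpart, which left 3492 (12.4%) without one. Of the wild-type peaks, 24247 of 39525 (61.3%, interval 60.9% to 61.8%) had a mutant counterpart, which left 15278 (38.7%) without one. These figures are the background for every count of unmatched peaks below.

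Each list was split by pileup rank into 4 classes of equal size, class 1 being the strongest. In class 1 of the mutant list 7051 of 7054 peaks (99.96%) were found in wild type, followed by 97.6% in class 2, 83.3% in class 3 and 69.6% in class 4. In class 1 of the wild-type list 9845 of 9882 peaks (99.6%) were found in the mutant, followed by 79.9% in class 2, 42.3% in class 3 and 23.6% in class 4. The drop with strength was steeper in the wild-type list, which is the deeper and longer one. Pileups in class 4 ran between 13 and 21 in the mutant and between 20 and 29 in wild type, where the reads are more numerous.

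**Figure D1:**
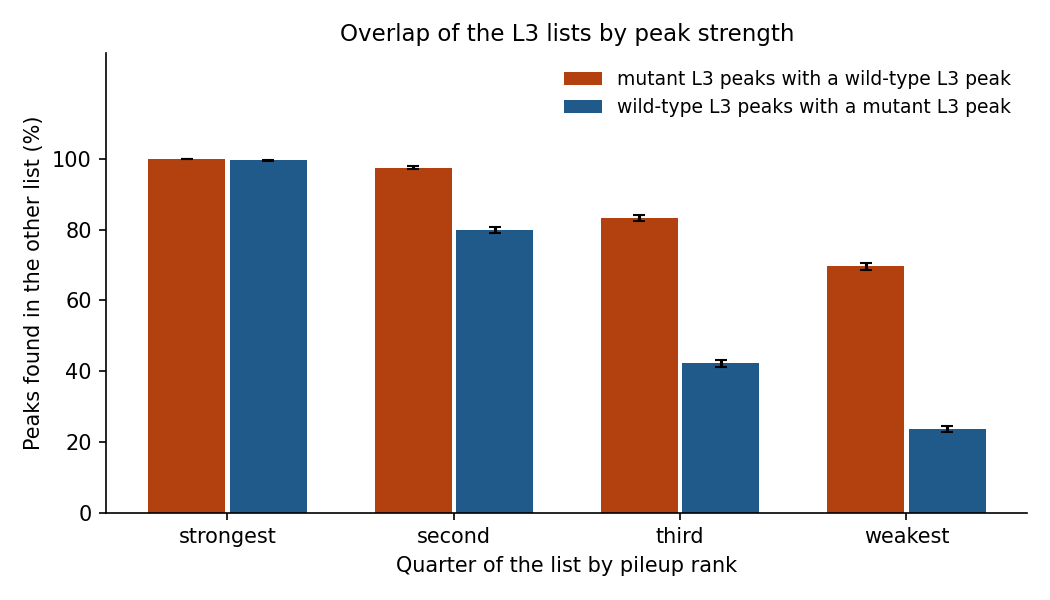
Share of L3 peaks (%) found in the L3 list of the other genotype, by class of the pileup rank within the list; bars give the share and error lines the exact 95% binomial interval (counting error only). In the strongest class 99.96% of the mutant and 99.6% of the wild-type peaks were shared, and 69.6% of the mutant and 23.6% of the wild-type peaks in the weakest.

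With the wild-type list cut to its 28216 strongest peaks, so that both lists were equally long, 78.2% of the mutant peaks had a wild-type counterpart and 76.0% of the wild-type peaks had a mutant counterpart. The gap between the directions was thus 2.24 percentage points, against 26.3 points with the full lists. Where most peaks match a single peak, equally long lists give similar shares in both directions, so the narrower gap follows from the cut. Of the 5000 strongest mutant peaks, 90.1% lay on one of the 5000 strongest wild-type peaks, and 89.8% did in the other direction. Among the 1000 strongest of each list the shares were 79.7% and 79.9%, so the order at the very top was less alike, although nearly all of these regions were in both full lists. When only the 29829 wild-type peaks were kept whose pileup, scaled by the median ratio between the lists, reached the median of class 4 of the mutant list (a pileup of 19), 73.6% (interval 73.1% to 74.1%) had a mutant counterpart.

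The shares were alike on the large arms. Between 87.0% (3R) and 88.8% (3L) of the mutant peaks were found in wild type, and between 59.7% (3R) and 64.2% (3L) of the wild-type peaks were found in the mutant. The wild-type share was higher on chromosome 4, and it was lower in a stretch of 3R described below. On chromosome 4, a small chromosome rich in heterochromatin, 64 of 77 mutant peaks (83.1%, interval 72.9% to 90.7%) and 65 of 87 wild-type peaks (74.7%, interval 64.3% to 83.4%) were shared.

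Peaks found in 1 genotype only were short and low in both lists. The 3492 peaks of the mutant alone had a median pileup of 20 and a median length of 149 bp, where the shared mutant peaks had 31 and 268 bp. The 15278 peaks of wild type alone had a median pileup of 29 and a median length of 168 bp, where the shared wild-type peaks had 48 and 315 bp. A −log10 q of at least 10, a strict level of the peak caller, was reached by 71 (2.03%) of the peaks of the mutant alone and by 628 (4.11%) of those of wild type alone. In the full lists 12609 of 28216 mutant peaks and 15640 of 39525 wild-type peaks reached it. The nearest summit of the other list was within 1 kb for 56.5% of the peaks of the mutant alone and for 37.9% of those of wild type alone. The share at random positions was not computed, so these values do not show that unmatched peaks lie near peaks of the other list.

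The 5 strongest peaks of the mutant alone were moderate in height, and each had a peak in the mutant again at 24 h. The highest, at chrX:17906156-17906506, had a pileup of 52 in the mutant at L3 and ranked 6660 of 28216. It was found again in the mutant at 24 h with a pileup of 35, and in no wild-type list. The peak at chr2L:10143312-10143805 had a pileup of 51, and the region had peaks at 24 h and 44 h in both genotypes. The peak at chr3L:4494486-4494820 had a pileup of 50, overlapped an E93 ChIP-seq peak, and was found in both mutant pupal lists and in wild type at 24 h. The peak at chr2L:20104565-20104771 had a pileup of 47 and was found at 24 h in both genotypes. The fifth, at chr3L:18025955-18026277, had a pileup of 43 at L3 in the mutant. It had pileups of 43 at 24 h and 48 at 44 h in the mutant, and 103 at 24 h and 136 at 44 h in wild type, where it ranked 598 of 28684 at 44 h. The lists differ in depth and scaling, and these pileups were not corrected for that. Of these 5 regions, then, 4 were open in wild-type pupal wings. Larger sets had lower shares. Of the 175 peaks of the mutant alone above the middle rank of the list, 98 were in a later mutant list. In a later wild-type list were 87 of the 175. Over all 3492 peaks of the mutant alone, 24.5% had a mutant 24 h peak and 23.7% a wild-type 24 h peak.

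The 5 strongest peaks of wild type alone were higher, and 4 of them lay within 0.2 Mb of each other on 3R. The highest, at chr3R:17660382-17661116, had a pileup of 91 in wild type at L3, ranked 5039 of 39525 and overlapped an E93 ChIP-seq peak. It was found in the mutant later, with a pileup of 20 at 24 h and 16 at 44 h, against 82.2 and 34.9 in wild type. These pileups are not scaled for the depth of the lists. Over all matched peaks the median pair had 0.670 times the wild-type pileup in the mutant at 24 h, and 0.478 times at 44 h. The peak at chr3R:17848449-17848623 had a wild-type L3 pileup of 73, and pileups of 32 and 25 in the mutant at 24 h and 44 h. The peak at chr3R:17739264-17739860 had a wild-type L3 pileup of 72 and a mutant pileup of 27 at 24 h, and the peak at chr3R:17767417-17767673 had 67 and 23. The fifth, at chr2R:6537309-6537539, had a wild-type L3 pileup of 66. It was found in wild type at 24 h and 44 h and in none of the mutant lists. Of all 37 wild-type class 1 peaks that the mutant lacked at L3, 21 had a peak in the mutant at 24 h or 44 h, and 7 lay in the 3R interval described below. The share with a later mutant peak was not taken over all wild-type class 1 peaks.

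Peaks of 1 genotype were also looked up in the later lists of both genotypes. Of the peaks of the mutant alone, 68 of 3492 (1.95%, interval 1.52% to 2.46%) were in both later mutant lists and in no wild-type list, and 117 (3.35%) were in both later wild-type lists and in no later mutant list. Of the peaks of wild type alone, 563 of 15278 (3.69%, interval 3.39% to 4.00%) were in both later wild-type lists and in no mutant list, and 163 (1.07%) were in both later mutant lists and in no later wild-type list. In each set the peaks seen later in wild type only outnumbered those seen later in the mutant only, and the later wild-type lists are the deeper ones (17.5 M reads at 24 h and 14.5 M at 44 h, against 4.68 M and 2.79 M in the mutant). No other FAIRE-seq list held 1943 (55.6%) of the peaks of the mutant alone and 9045 (59.2%) of those of wild type alone. These counts were not taken over all L3 peaks or over shared peaks of like strength. The mutant 24 h list held 24.5% of the peaks of the mutant alone and 73.5% of the shared mutant peaks. Within class 4 of the mutant list these shares were 19.7% and 40.2%, so weak shared peaks were often absent later too.

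At shared regions the height of the peaks followed the same order in both genotypes. Peaks were paired when each was the other's largest overlap, which gave 23640 pairs with a median distance of 24 bp between summits. Summits lay within 100 bp in 86.1% of the pairs. Spearman's rho of the pileups was 0.909 over the 23640 pairs, as a description of 2 lists whose points share a library and a depth on each axis, and 57.6% of the pairs had the same class in both lists. The median pair had 0.676 times the pileup in the mutant, and the recovered depth was 0.569 times that of wild type. This median was taken off each log2 ratio, and the remainder is called the scaled ratio, positive where the peak was relatively higher in the mutant.

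The scaled ratios were narrow. Their middle range, from the lower to the upper quartile, ran from -0.20 to 0.17 on the log2 scale, and 5% of the pairs lay below -0.51 and 5% above 0.40. A scaled ratio of at least 2-fold in favour of the mutant was found for 26 of 23640 pairs (0.110%), and of at least 2-fold in favour of wild type for 59 (0.250%). From class 1 to class 4 of the wild-type list the median scaled ratio was 0.04, -0.11, -0.02 and 0.13. A weak wild-type peak enters a pair only where the mutant peak was high enough to be called.

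**Figure D2:**
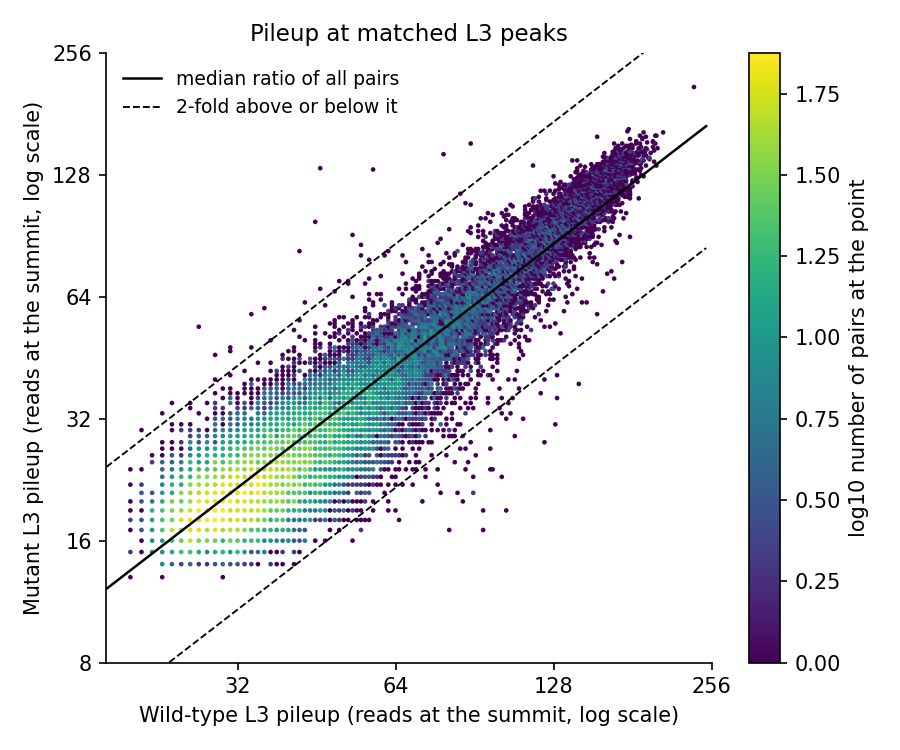
Pileup in the mutant list (vertical) against the wild-type list (horizontal) at the 23640 matched L3 peaks, both on a log scale; the colour gives the number of pairs at a point, the solid line the median ratio and the dashed lines a 2-fold scaled ratio above or below it. The pairs lie along the solid line, with 26 above and 59 below the dashed lines.

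The matched regions named next were picked for a high rank in both lists. Their ranks therefore do not show how alike the lists are at the top. The region at chr2R:3132454-3134756 had the highest pileup of both, 211 in the mutant and 237 in wild type. The region at chr3L:18006014-18006992 had pileups of 163 and 207 and ranked 4 in the mutant and 2 in wild type, with summits 4 bp apart. The region at chr2R:17591829-17592544 had pileups of 160 and 201, ranked 7 in the mutant and 5 in wild type, and its summits lay 1 bp apart. Their scaled ratios of 0.40, 0.22 and 0.24 are all above 0. The pileups lie close to the top of each list's range, whereas class 1 as a whole had a median of 0.04. The highest pileups, 211 in the mutant and 237 in wild type, lie closer together than the depths of 5.44 M and 9.57 M reads. The part of this in the values above 0 was not tested, so they are not read as a stronger opening in the mutant.

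The largest scaled ratios came mostly from peaks that 1 list split and the other did not. The 3 highest, of 2.10, 1.75 and 1.69, were all mutant peaks over 1 kb long that overlapped more than 1 wild-type peak. At chr2R:14423307-14424328 the mutant peak had a pileup of 133 and was paired with a wild-type peak of 46, but a second wild-type peak beneath it reached 182. At chrX:8188211-8189707 the mutant pileup was 132, paired with 58 in wild type, and another wild-type peak beneath it reached 114. At chrX:10954-12709, by contrast, the mutant pileup was 98 and the highest wild-type peak beneath it 45. That region also had the higher pileup in the mutant at 24 h (73, against 35.3 in wild type) and at 44 h (49, against 35.6), although the depths and scaling of those lists differ. The 3 lowest scaled ratios, of -1.90, -1.89 and -1.74, were wild-type peaks of 677, 793 and 765 bp that the mutant list held in pieces, with paired summits 408, 503 and 399 bp apart. Of the 85 pairs past 2-fold, 43 had summits more than 250 bp apart, against 3.46% of all pairs. With closer summits, 13 pairs were higher in the mutant and 29 were higher in wild type.

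Among these 42 pairs with close summits, the 3 lowest ratios outside the 3R interval also lay on 3R, megabases apart. At chr3R:15690694-15690962 the pileup was 21 in the mutant and 84 in wild type. Its summits lay 244 bp apart, and the pair was not 1 to 1: a peak in it overlapped more than 1 peak of the other list. At chr3R:19750306-19750521, a region with no peak in either genotype at 24 h or 44 h, the pileup was 21 in the mutant and 78 in wild type. This pair was not 1 to 1 either, with summits 245 bp apart. At chr3R:21469538-21469862, which overlapped an E93 ChIP-seq peak, the pileup was 24 in the mutant and 87 in wild type at L3, whereas the mutant had 135 at 24 h and 86 at 44 h. That pair was 1 to 1, with summits 102 bp apart. All of these regions were chosen after their values were seen.

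The mutant list lay closer to wild-type L3 than to wild-type 24 h in each measure given here. Of its peaks, 65.8% (interval 65.2% to 66.3%) were found in wild type at 24 h and 57.5% (interval 56.9% to 58.1%) at 44 h. For the equally long wild-type L3 list the shares were 67.2% and 58.6%. The mutant list thus differed from wild-type L3 by -1.42 points in its overlap with 24 h. In the mutant's own later lists the shares were 67.4% for the mutant L3 peaks and 66.9% for the wild-type L3 peaks at 24 h, and 57.0% and 57.2% at 44 h.

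**Figure D3:**
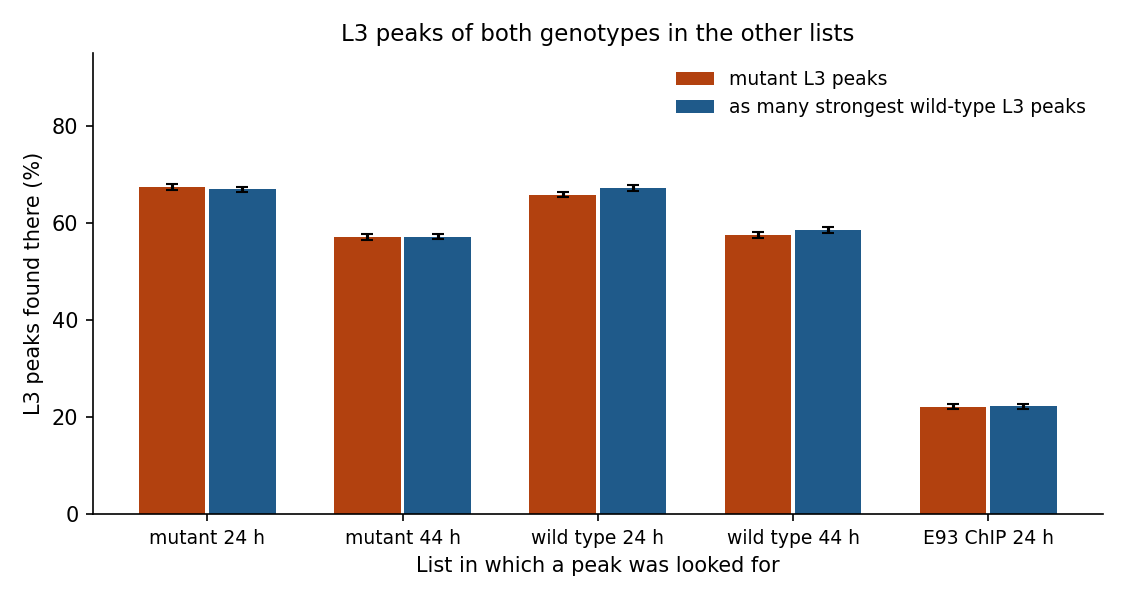
Share (%) of the 28216 mutant L3 peaks and of the 28216 strongest wild-type L3 peaks that had a peak in each later FAIRE-seq list and in the E93 ChIP-seq list, with exact 95% binomial intervals (counting error only). The L3 lists of the genotypes lie within 1.5 percentage points of each other in all 5 lists.

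Regions that wild type had at 1 stage only were looked up as well. Of the 8678 wild-type 24 h peaks that had no wild-type L3 peak, 791 (9.11%, interval 8.52% to 9.74%) had a mutant L3 peak, a share that was 4.48% at a −log10 q of at least 10 in every list and 14.0% at equal list sizes. From class 1 to class 4 of the 24 h list these shares were 12.5%, 10.6%, 6.88% and 9.74%. Of the 10008 wild-type 44 h peaks absent at L3, 7.69% (interval 7.18% to 8.23%) had a mutant L3 peak. Conversely, 6771 of the 18636 wild-type L3 peaks absent at 24 h (36.3%, interval 35.6% to 37.0%) had a mutant L3 peak, and 55.3% at the stricter q. In class 1 these larval regions were nearly all present, 609 of 618 (98.5%), with 68.6%, 34.9% and 20.3% in classes 2 to 4. The order of pileups was compared in the same way. Spearman's rho with the mutant L3 pileups was 0.909 at peaks paired with wild-type L3, 0.600 at the 17628 peaks paired with wild-type 24 h and 0.500 at the 15331 paired with wild-type 44 h. Wild-type L3 had 0.619 with wild-type 24 h and 0.534 with wild-type 44 h. With the mutant 24 h list rho was higher for both, 0.777 for mutant L3 over 18445 pairs and 0.782 for wild-type L3 over 20524 pairs. The mutant 44 h list was not compared in this way. The wild-type pupal lists also have more reads, 17.5 M at 24 h and 14.5 M at 44 h, against 4.68 M in the mutant 24 h list. The part of depth in these differences of rho was not tested. None of the shares and rho values above separates the third instar from 0 h APF, since no wild-type list of 0 h APF was analysed here.

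The same comparison at the pupal stages gave a wider spread of peak heights. At L3 scaled ratios past 2-fold made up 0.360% of the 23640 pairs, against 10.8% of 18896 pairs at 24 h and 14.3% of 17218 pairs at 44 h. Spearman's rho between mutant and wild-type pileups, 0.909 at L3, came to 0.709 for 24 h and 0.690 for 44 h. No mutant peak was found for 37 of the 9882 wild-type class 1 peaks of L3 (0.374%), for 261 of the 7433 of 24 h (3.51%) and for 291 of the 7171 of 44 h (4.06%). At equal list sizes 78.2% of the mutant peaks were found in wild type at L3, compared with 71.9% for 24 h and 72.8% for 44 h. Without replicate values the difference between stages was not tested. The depth of the mutant list was 0.569 times that of wild type at L3 but 0.267 times for 24 h and 0.192 times for 44 h, and the wild-type pupal lists were scaled down by the peak caller. The part of depth in the wider spread was not tested.

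E93 binding sites of 24 h wings often overlapped an L3 peak, in the mutant as in wild type. Of the 8477 ChIP-seq peaks, 6516 (76.9%, interval 76.0% to 77.8%) had a mutant L3 peak and 6839 (80.7%, interval 79.8% to 81.5%) a wild-type L3 peak. With the wild-type list cut to the mutant's length the wild-type share was 78.0%. The mutant share was 39.6% when 50% of both peaks had to overlap and 52.4% between equally long lists of the strongest mutant and ChIP-seq peaks. Of all wild-type 24 h FAIRE-seq peaks, 62.4% had a mutant L3 peak and 70.8% a wild-type L3 peak. In class 1 of the ChIP-seq list the shares were 88.1% in the mutant and 90.6% in wild type, and in class 4 they were 67.9% and 72.9%. Only the mutant list held 159 sites (1.88%), only the wild-type list 482 (5.69%), and neither 1479 (17.4%). Sites that wild-type wings opened between L3 and 24 h mostly had no peak in the mutant at L3: of 1409 such sites, 143 (10.1%, interval 8.62% to 11.8%) had a mutant L3 peak, close to the 9.11% of all wild-type 24 h peaks absent at L3.

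Pair heights at E93 sites were near those elsewhere. The 5910 pairs that overlapped a ChIP-seq peak had a median scaled ratio of 0.06, against -0.02 for the others. Sites were found mainly at strong peaks, and within class 1 of the wild-type list the medians were 0.08 at 4281 sites and 0.00 elsewhere. Past 2-fold were 8 sites higher in the mutant and 14 higher in wild type, 0.372% of the sites, against 0.360% of all pairs.

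Regions lower in the mutant lay next to each other on 3R. Pairs were grouped in windows of 250 kb with at least 10 pairs, 461 in all, and 90% of the windows had a median scaled ratio between -0.10 and 0.08. The lowest, chr3R:17750000-17999999, had a median of -0.67 over 28 pairs. The next, its neighbour chr3R:17500000-17749999, had -0.43 over 52 pairs, and the third lowest, elsewhere on 3R, had -0.21. The highest of all windows had 0.19. The strain label names a deficiency of 3R, which is a chromosome that lacks a stretch of that arm, so that flies carrying it over an intact chromosome have 1 copy of the stretch. The breakpoints of the deficiency were not located here, and whether it spans these windows was not tested.

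Bins of 50 kb, taken after the windows had been seen, placed the edges more closely. From 17400000 to 17499999 the median scaled ratio was 0.00 in both bins, and from 17500000 it was -0.09. In the 10 bins from 17550000 to 18049999 it lay between -0.40 and -0.87, with 1 bin that held no pair. Few pairs followed (1 and 2 in the next bins), and in the bin from 18150000 the median was 0.17. The stretch of 500 kb at chr3R:17550000-18049999, in which the bins ran on below -0.25 from the lowest window outward, is called the 3R interval here.

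In the 3R interval nearly every region was lower in the mutant. Its 78 pairs had a median scaled ratio of -0.62, a scaled pileup of 0.651 times wild type, and 75 of them lay below 0, where 49.7% of the pairs elsewhere did. Before scaling, the median mutant pileup was 0.440 times that of wild type, against 0.676 times elsewhere. Past 2-fold lower were 7 pairs (8.97%), where 0.250% of all pairs were. At chr3R:17684986-17685326 the pileup was 41 in the mutant and 130 in wild type, and at chr3R:17869671-17870019 it was 37 and 121. The rest of 3R had a median of 0.00 over 5460 pairs. Because the interval was chosen for these values, they are given as a description.

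Peaks were also missing there. Of the 190 wild-type L3 peaks in the 3R interval, 78 (41.1%, interval 34.0% to 48.4%) had a mutant counterpart, leaving 58.9% without one where the whole list left 38.7%. From class 1 to class 4, 60 of 67 (89.6%), 15 of 46 (32.6%), 1 of 41 (2.44%) and 2 of 36 (5.56%) were found, against 99.6%, 79.9%, 42.3% and 23.6% in the whole list. In the other direction 84 of the 86 mutant peaks (97.7%) were found in wild type. E93 sites in the interval had a median scaled ratio of -0.66 over 37 pairs and the other pairs -0.61 over 41, so both kinds of region were low.

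The later lists, which did not enter the choice of the interval, had low values there too. The median scaled ratio of mutant to wild type was -0.41 over 88 pairs at 24 h and -0.57 over 72 pairs at 44 h. Below 0 were 61 of the 88 pairs at 24 h (69.3%) and 58 of the 72 at 44 h (80.6%). The window from 17750000 to 17999999 had -0.44 at 24 h, the third lowest of 450 windows, and -0.71 at 44 h, the lowest of 435. Its neighbour from 17500000 to 17749999 was less low, with -0.27 at 24 h (rank 17) and -0.09 at 44 h (rank 144). Single bins in the interval were above 0, among them the bin from 17600000 with 0.22 over 4 pairs at 24 h and 0.26 over 2 pairs at 44 h, and the bin from 17750000 with 0.04 over 15 pairs at 24 h. Between stages of 1 genotype the median scaled ratio of the interval was 0.03 for 24 h over L3 and -0.01 for 44 h over L3 in wild type, and -0.01 and -0.17 in the mutant.

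**Figure D4:**
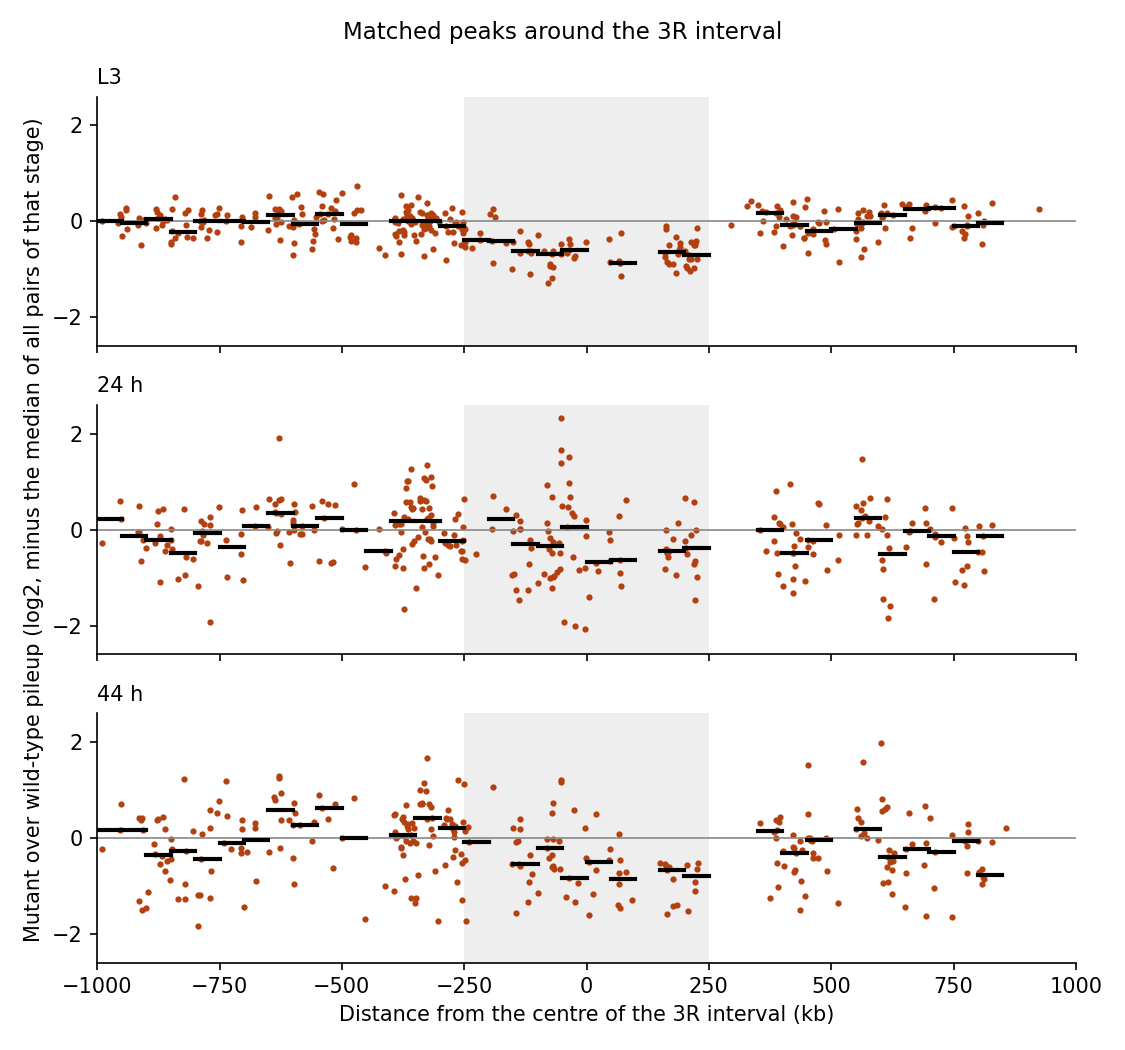
Scaled ratio of mutant to wild-type pileup (log2) of single matched peaks (dots) against the distance from the centre of the 3R interval (kb), at L3, 24 h and 44 h; black lines are medians in bins of 50 kb with at least 3 pairs, and the grey band is the interval of 500 kb. At L3 75 of the 78 pairs in the band lie below 0, and the peaks on both sides lie around 0.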

How the data were processed

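FAIRE-seq was made from E93 mutant and wild-type wing discs at L3 by the authors, who pooled replicates and deposited 1 peak list per condition. In each deposited list the pileup is the authors' coverage signal at the summit, their ratio of that pileup to the local background is the fold enrichment, and −log10 p and −log10 q values per peak are theirs too. The submitters' processing notes name dm3, Bowtie2 2.2.8, Picard 2.2.4 and MACS2, without saying how each was used. The lowest −log10 q was 1.32 in the mutant and 1.31 in the wild-type list. Fold enrichment was an alternative only, because the control reads run past the ends of the dm3 arms. Control reads and RNA-seq were not used.

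Peaks were assigned to groups by the labels, matched by 1 bp overlap and ranked by pileup. Regions named were the 5 highest peaks of each genotype alone, the 3 pairs with the best worse rank, and the 3 pairs with the highest and the 3 with the lowest scaled ratio among pairs in class 1 or 2 of at least 1 list, other regions being marked in the text. No region was assigned to a gene and no sequence is shown, because the gene tables used are on Release 6. Regions, lists and comparisons were chosen with earlier results of these data known. Alternatives were equal list sizes, a −log10 q of 10 or more, an overlap of 50% of both peaks, summits no more than 250 bp apart, large arms only, wild-type peaks callable at the mutant depth, other measures than pileup, pairs in which neither peak overlaps another, and windows of 500 kb. Chosen after seeing the data were leaving out the 3R interval and, for the 2-fold share, pairs with close summits. Scripts (Python 3.11.15, numpy 2.4.6, pandas 2.3.3, scipy 1.17.1) were tested on simulated lists.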

Additional observations from a re-analysis of the deposited data

How the results depend on the processing

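With 1 pooled list per condition, replicates could not be left out and nothing was tested. No paired analysis was possible because the columns carry pooled replicates only. Of 47 alternative values, 14 lay within the counting interval of the reported value and 33 did not. The share of mutant L3 peaks in wild-type L3 was 94.4% at a −log10 q of at least 10, 73.2% at 50% overlap, 83.5% by summits and 78.2% at equal list sizes. The share of wild-type L3 peaks in the mutant was 75.8%, 52.3%, 59.8% and 76.0% in the same order, and 73.6% for peaks callable at the mutant depth. In that order the share of mutant L3 peaks in wild-type 24 h was 76.4%, 47.5%, 60.2% and 63.9%, that of wild-type L3 peaks absent at 24 h in the mutant 55.3%, 35.0%, 39.3% and 52.8%, that of wild-type 24 h peaks absent at L3 in the mutant 4.48%, 12.6%, 13.9% and 14.0%, and that of ChIP-seq peaks in the mutant 75.0%, 39.6%, 64.3% and 52.4%. Lists cut by q, length or callable pileup hold fewer peaks by construction, and the 50% overlap narrows what counts as a match. The summit rule asks for no overlap, so it drops some matches and can add others. The rank correlation was 0.886 with fold enrichment, 0.894 with −log10 p and 0.923 at the stricter q. The share of pairs past 2-fold was 0.478% with fold enrichment, 0.198% at the stricter q, 0.173% for pairs in which neither peak overlaps another, and 0.184% for pairs with close summits. Without the 3R interval the lowest window had -0.21, and the share of wild-type peaks in the mutant was 61.4%. The lowest window lay in the same part of 3R with windows of 500 kb (-0.49), fold enrichment (-0.63) and the stricter q (-0.73). The mutant list has 5.44 M reads and the wild-type list 9.57 M, and the part of depth in the missing peaks was not tested by thinning reads. A wild-type peak without a mutant counterpart is not shown to be closed.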
